A study of Mus musculus with 4 samples.

Results

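The 40 genes described here are markers of dividing cells: 16 act in S phase, when DNA is copied, and 24 act in mitosis, when the copies are separated. They were taken by symbol, and all 40 of 40 were found among the 32285 genes of the files. The data are Visium spatial transcriptomes, in which a tissue section lies on a slide printed with barcoded spots and each spot counts the transcripts of the cells above it as unique molecular identifiers (UMIs). Per the labels, all 4 sections came from wild-type mice without treatment and were cut from fresh frozen tissue at 8 µm: 1 section at E13.5 and 1 at E16.5, whose titles name the embryonic esophagus and whose tissue is given as mouse embryo, and 2 of the dissected esophagus at birth (P0). The embryo sections hold many organs, and a spot usually covers several cells, so a level can reflect the number of dividing cells or the RNA in each of them, and these cannot be told apart. The animals behind the sections are not named in the labels, so the spread between the P0 sections may be technical.

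A dividing cell first loads the MCM helicase onto DNA with the help of Cdt1, then starts replication under cyclin E and cyclin A, and the E2F transcription factors drive the genes needed for it. Later, cyclin B and Cdk1 start mitosis, the Aurora and Plk1 kinases build the spindle, the spindle checkpoint holds the cell until chromosomes are attached, and the anaphase promoting complex with Cdc20 lets them separate. Many genes of mitosis share a promoter element called the cell cycle genes homology region (CHR), bound by the DREAM and MuvB complexes, and many genes of S phase share E2F sites. In stratified epithelium such as that of the esophagus, division is a property of the basal layer, and cells leave the cycle as they move up and differentiate.

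These elements were looked for in the promoters of the members. RefSeq promoters (GRCm38.p6, from 250 bases before to 50 bases after the start) were at hand for 33 of the 40 genes. The CHR letters TTTGAA or TTCGAA, on either strand, were in the promoters of 15 of 20 mitosis genes and 2 of 13 S phase genes, beside 21.7% of all 27025 genes in the table. E2F letters were searched as TTCCCGC, and equally as TTCGCGC, and further as TTGCCGC, and lastly as TTGGCGC, each on either strand. They were in 9 of 13 S phase genes and 3 of 20 mitosis genes, beside 10.9% of all genes. The CCAAT box, CCAAT on either strand, was in 18 of 20 mitosis genes and 9 of 13 S phase genes, beside 41.1% of all genes. Matches of different motifs may overlap, and each was counted. In 14 of the 15 mitosis genes with CHR letters the nearest match began within 50 bases of the start. Of the 36 further mitosis genes listed below, 30 had a promoter and 24 of them held CHR letters, and of the 28 further S phase genes 22 had a promoter and 14 held E2F letters. The 7 members without a promoter in the table were Mcm4, Gins2, Ccne2, Ccna2, Aurkb, Tpx2 and Kif20a. A match describes the letters of the window and is not a measured site.

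Shown first, because most members called between P0 epithelial spots of lower and higher suprabasal markers were mitosis genes, are the promoters of 4 of those called. The windows run from 170 bases before to 20 bases after the start, are written 5′ to 3′ on the strand of the gene, and have CHR letters in capitals: Cdk1 at chr10:69352893-69353082 on the minus strand, Ccnb2 at chr9:70421535-70421724 on the minus strand, Cdc20 at chr4:118437324-118437513 on the minus strand and Ube2c at chr2:164769759-164769948 on the plus strand.
Cdk1: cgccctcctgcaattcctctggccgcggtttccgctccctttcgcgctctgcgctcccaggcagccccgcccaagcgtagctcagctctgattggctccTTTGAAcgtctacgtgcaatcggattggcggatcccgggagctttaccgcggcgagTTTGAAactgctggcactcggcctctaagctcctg
Ccnb2: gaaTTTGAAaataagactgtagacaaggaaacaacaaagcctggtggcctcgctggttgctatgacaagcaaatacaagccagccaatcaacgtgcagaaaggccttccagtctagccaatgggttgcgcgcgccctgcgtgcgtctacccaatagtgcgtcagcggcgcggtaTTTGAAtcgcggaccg
Cdc20: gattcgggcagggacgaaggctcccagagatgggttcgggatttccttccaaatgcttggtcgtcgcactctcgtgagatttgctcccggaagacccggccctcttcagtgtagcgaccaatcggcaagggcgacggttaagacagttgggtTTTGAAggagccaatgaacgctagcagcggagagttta
Ube2c: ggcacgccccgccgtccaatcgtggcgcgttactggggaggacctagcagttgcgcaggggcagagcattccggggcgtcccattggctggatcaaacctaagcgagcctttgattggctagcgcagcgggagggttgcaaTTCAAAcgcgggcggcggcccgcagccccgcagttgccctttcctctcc
The matches in Cdk1, Ccnb2 and Cdc20 read TTTGAA on the strand of the gene, and that in Ube2c reads TTCAAA, its reverse complement. Cdk1 also holds the E2F letters TTCGCGC, beginning 130 bases before the start and left in lower case here.

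The next 4 are S phase genes over the same window, with E2F letters in capitals, shown for contrast: Mcm5 at chr8:75109339-75109528 on the plus strand, Mcm6 at chr1:128359686-128359875 on the minus strand, Hells at chr19:38930820-38931009 on the plus strand and Rrm1 at chr7:102441525-102441714 on the plus strand.
Mcm5: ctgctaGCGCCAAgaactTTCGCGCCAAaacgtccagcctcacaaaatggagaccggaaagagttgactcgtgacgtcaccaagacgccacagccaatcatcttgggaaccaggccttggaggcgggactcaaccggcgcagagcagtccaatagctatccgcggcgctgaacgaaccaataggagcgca
Mcm6: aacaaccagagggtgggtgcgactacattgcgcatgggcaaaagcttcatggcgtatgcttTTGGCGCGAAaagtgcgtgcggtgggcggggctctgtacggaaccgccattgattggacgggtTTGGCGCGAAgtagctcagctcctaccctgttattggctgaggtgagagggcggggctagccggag
Hells: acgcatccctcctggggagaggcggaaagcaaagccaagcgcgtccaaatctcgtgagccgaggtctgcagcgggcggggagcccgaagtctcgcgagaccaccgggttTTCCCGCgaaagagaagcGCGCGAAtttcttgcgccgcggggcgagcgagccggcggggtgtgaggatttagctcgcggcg
Rrm1: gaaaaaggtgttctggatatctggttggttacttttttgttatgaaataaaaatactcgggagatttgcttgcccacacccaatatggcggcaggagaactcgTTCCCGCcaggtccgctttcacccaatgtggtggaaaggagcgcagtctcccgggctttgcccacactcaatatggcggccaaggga
In Mcm5 and Mcm6, overlapping matches run on into each other, so a capital stretch there is longer than 1 motif.

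The sections differed widely in size. After spots with fewer than 500 UMIs were left out, E13.5 had 3220 spots with 98643829 UMIs, E16.5 had 3588 spots with 105834164 UMIs, and the P0 sections had 363 and 264 spots with 10260709 and 7356008 UMIs. The median spot held between 25465 and 29289 UMIs. The tissue labels were checked on defining genes: Krt13, a keratin of the upper esophageal epithelium, was at 0.284 CPM at E13.5, 173 CPM at E16.5, and 10591 and 10130 CPM in the P0 sections, and Myh11 of smooth muscle was at 26.4, 42.1, 905 and 556 CPM. Section pairs shared between 24 and 2542 spot barcodes, which slides take from a fixed list. CPM are UMIs per 1000000 UMIs of the section, class or region named, and intervals are exact Poisson 95% intervals unless stated, which cover counting error only.

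Dividing-cell transcripts were most abundant at E13.5. Together the 40 genes held 2417 CPM at E13.5 (95% interval 2408 to 2427), 1617 CPM at E16.5 (1610 to 1625), and 1698 and 1670 CPM in the P0 sections, a P0 mean of 1684 ± 19.7 CPM (SD, n = 2). The S phase genes summed to 1031, 658, 741 and 743 CPM in that order of sections, and the mitosis genes to 1387, 959.7, 957 and 927 CPM. The P0 sections lay close to each other and above E16.5 for the S phase genes, while for the mitosis genes E16.5 and P0 were nearly level. The ratio of mitosis to S phase UMIs was 1.35 at E13.5, 1.46 at E16.5, and 1.29 and 1.25 at P0. Tissue differs between the embryo and P0 sections, so these levels describe sections and not a time course of 1 organ.

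**Figure D1:**
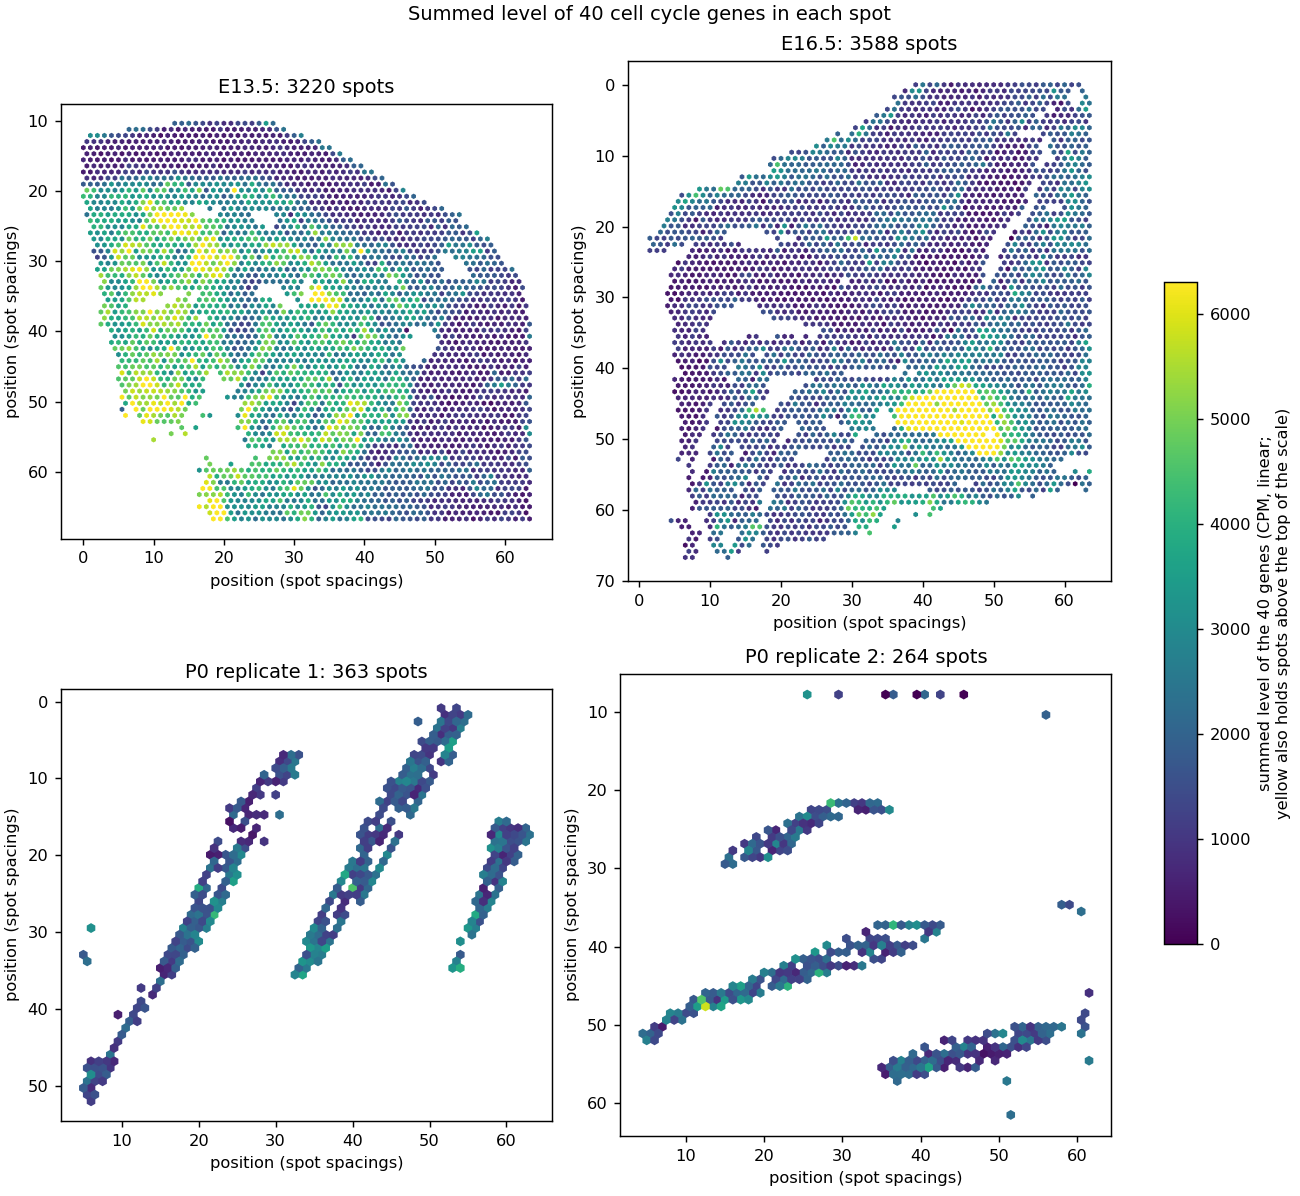
Summed level of the 40 genes in each spot (CPM, colour, 1 scale for all panels) over the grid position in the 4 sections, in units of the spacing between spots. High spots form patches at E13.5, 1 compact block stands out at E16.5, and the P0 esophagus strips lack such a block.

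Within a section the genes varied strongly from spot to spot. With each spot thinned to 10000 UMIs, the median spot had 25 UMIs of the 40 genes at E13.5 (10th to 90th percentile 6 to 50), 14 at E16.5 (5 to 30), 17 in P0 replicate 1 (8 to 30) and 17 in P0 replicate 2 (8 to 29.4). Thinning kept 3054 of 3220, 3138 of 3588, 351 of 363 and 247 of 264 spots, and unthinned spots held means of 74.1, 47.7, 47.99 and 46.5 UMIs. The variance over the mean was 10.9 and 8.86 in the embryo sections and 3.90 and 4.31 in the P0 sections. Spots of the whole embryo thus spread over a wider range than spots of the dissected esophagus, as the maps of the summed level show.

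The members are given next by role, each role by the gene with the highest P0 level in it. Mcm7, a subunit of the replicative MCM helicase, was at 107 CPM at E13.5, 58.6 CPM at E16.5, and 63.4 and 66.2 CPM in the P0 sections. Pcna, the clamp that holds DNA polymerase on its template, was at 177 CPM at E13.5, 131 CPM at E16.5, and 139.8 and 145 CPM in the P0 sections. Both were highest at E13.5, and in both the P0 sections lay between the embryonic stages. Rrm1, the large subunit of ribonucleotide reductase, which makes deoxynucleotides, was at 103 CPM at E13.5, 71.6 CPM at E16.5, and 83.7 and 84.01 CPM in the P0 sections. Uhrf1, which helps to carry DNA methylation onto new strands, was at 48.8 CPM at E13.5, 35.1 CPM at E16.5, and 39.5 and 36.8 CPM in the P0 sections. These followed the same order. Ccne1, the cyclin E that brings cells into S phase, was at 32.2 CPM at E13.5, 20.2 CPM at E16.5, and 15.5 and 16.3 CPM in the P0 sections. Here the P0 sections were the low end, below E16.5. Over all 16 S phase genes the lowest and highest difference from E13.5 to E16.5 were log2 -0.96 for Mcm4 and -0.42 for Ccne2.

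Cks2, a small partner of Cdk1, was at 117 CPM at E13.5, 74.5 CPM at E16.5, and 102 and 98.4 CPM in the P0 sections. Mki67, which coats mitotic chromosomes and is the classic stain for dividing cells, was at 102 CPM at E13.5, 85.6 CPM at E16.5, and 69.4 and 63.3 CPM in the P0 sections. Cks2 was lower at E16.5 than at P0, and Mki67 was the reverse. Birc5 (survivin), of the chromosomal passenger complex, was at 101 CPM at E13.5, 70.3 CPM at E16.5, and 46.00 and 40.5 CPM in the P0 sections. Tpx2, the activator of Aurora A on the spindle, was at 42.5 CPM at E13.5, 27.2 CPM at E16.5, and 26.6 and 25.4 CPM in the P0 sections. For Birc5 the P0 sections were well below both embryo sections. Bub1b, a spindle checkpoint kinase homologue, was at 32.2 CPM at E13.5, 21.01 CPM at E16.5, and 18.7 and 20.1 CPM in the P0 sections. Ube2c, the ubiquitin-conjugating enzyme of the anaphase promoting complex, was at 156 CPM at E13.5, 106 CPM at E16.5, and 94.6 and 92.7 CPM in the P0 sections. In both, the step between the embryonic stages was larger than that from E16.5 to P0. Cenpa, the histone H3 variant of centromeres, was at 93.2 CPM at E13.5, 71.9 CPM at E16.5, and 46.9 and 51.9 CPM in the P0 sections. Kif23, a kinesin of the central spindle, was at 30.7 CPM at E13.5, 22.6 CPM at E16.5, and 30.1 and 33.7 CPM in the P0 sections. Racgap1, its partner in cytokinesis, was at 73.5 CPM at E13.5, 42.5 CPM at E16.5, and 45.1 and 46.2 CPM in the P0 sections. Cenpa was highest at E13.5 and lowest at P0, whereas Kif23 at P0 was about at its E13.5 level.

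**Figure D2:**
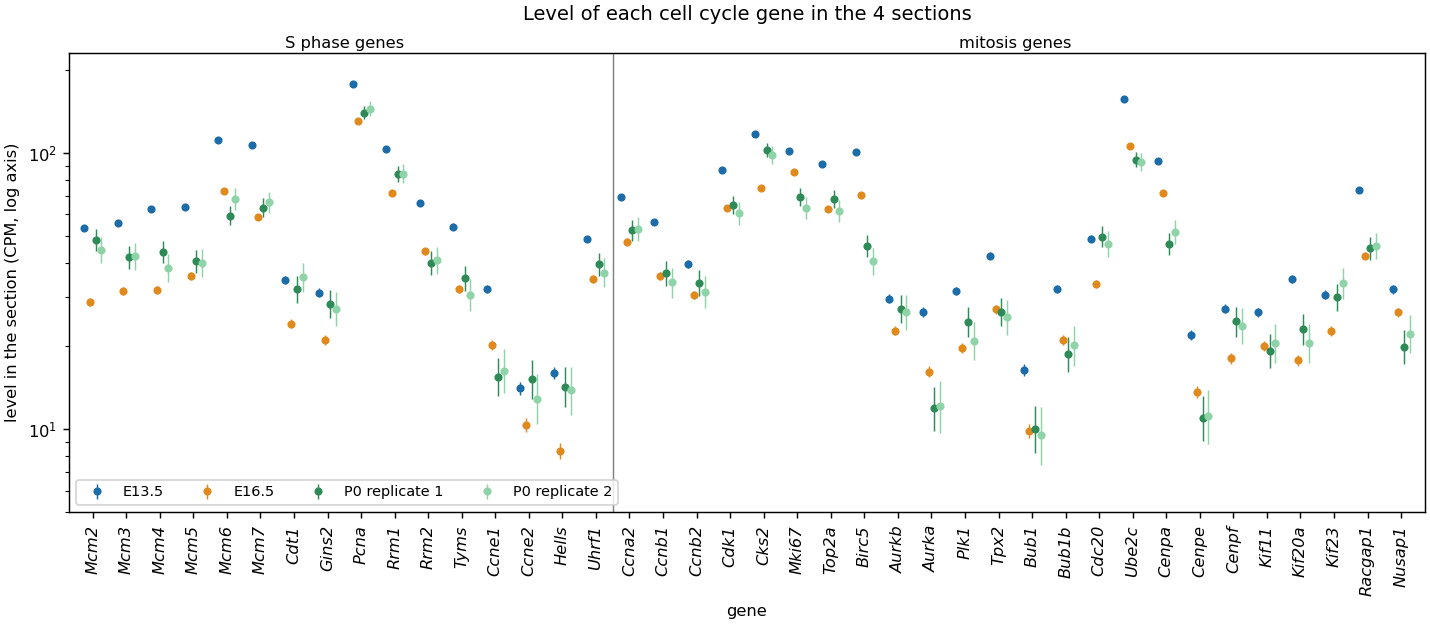
Level of each of the 40 genes (CPM, log axis) in the 4 sections, with exact Poisson 95% intervals as bars, S phase genes left of the line and mitosis genes right. The E13.5 point lies above the E16.5 point for each gene, and the P0 points of the 2 sections lie close together.

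Between the embryonic stages every member was lower in the E16.5 section. All 40 of 40 had a log2 ratio of CPM below 0 (pseudocount 0.5 CPM), with a median of -0.58, beside a median of -0.12 over 18900 genes. Past a fold of 1.5, 19 of 40 members were lower and 0 were higher, where 17.1% of all genes were lower past that fold and 18.3% higher. The MCM helicase was the role with the lowest median, at log2 -0.84, and Kif20a, a kinesin of cytokinesis, and Mcm4 had the lowest single values, both at -0.96. Mki67 moved least, at -0.25, followed by Nusap1, which bundles spindle microtubules, at -0.27. There is 1 section per stage and so no test. With TMM factors the median of all genes moved to -0.02, that of the members to -0.46 with 40 of 40 still below 0, and 9 rather than 19 members were past the fold.

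Genes around the members were read from lists of the same pathway, beside 57.7% of all genes below 0, 17.1% lower past the fold and 18.3% higher. Of 28 further S phase genes all 28 were below 0 and 16 were past the fold, Gins1 (log2 -1.06) and Rfc3 (-1.03) by most. Of 36 further mitosis genes 34 were below 0 and 7 past it (19.4%, near the share of all genes), Smc2 (-0.92) and Cks1b (-0.86) by most. Of 17 G1 cyclins, E2F factors and pocket proteins, 13 were below 0. Cdk4, the kinase of cyclin D, was at log2 -1.24, Ccnd2, a cyclin D, at -0.74, and E2f5 at -0.65. E2f2 was the single gene past the fold upward, at 0.93. Of 12 measured inhibitors and cell cycle exit genes, 5 were higher past the fold. These were Cdkn1a (p21), at log2 1.96, Cdkn2c (p18), at 1.40, Tob1, at 1.40, Ccng1, at 1.17, and Cdkn2b (p15), at 1.09. Ccng2, at -0.76, and Cdkn1c (p57), at -0.70, were lower past it, which at 2 of 12 is also near that share.

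Spots rich in the markers of a tissue were then compared with all other spots of the same section, taking the highest 2% of spots for each of 23 marker lists. A list was described where at least 3 of its markers reached 20 CPM in its spots, which left 18 lists at E13.5 and 21 at E16.5. The classes overlap and name what the spots are rich in, not pure tissues. In 13 of 18 classes at E13.5 and 15 of 21 at E16.5 the summed level was above that of the other spots. The 5 classes below at E13.5 were neural progenitor, neuron, sensory ganglion, epidermis, and enteric nerve and glia, and the 6 below at E16.5 were neural progenitor, neuron, sensory ganglion, enteric nerve and glia, brown fat and striated muscle.

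At E16.5 the thymus-marker spots stood far above every other class. Their summed level was 8718 CPM (95% interval 8515 to 8926) against 1563 CPM in the other spots, a 5.58-fold ratio, and all 40 members were higher past the fold of 1.5, where 28.3% of all genes were. Rag1, Lck and Cd3e are among these markers, and 7 of the 8 reached 20 CPM. Uhrf1 had the largest ratio, 363 CPM against 32.6 CPM, followed by Rrm2, the small and cycle-regulated subunit of ribonucleotide reductase, at 353 CPM against 41.8 CPM. Top2a, the topoisomerase that untangles sister chromatids, was at 485 CPM against 59.7 CPM. The smallest ratio was that of Ccne1, at 55.02 CPM against 19.9 CPM. The spots were shallow, with a median of 7830 UMIs, and 26 of the 72 were deep enough to thin to 10000 UMIs. What follows covers those deeper spots alone. Each of those 26 was among the 63 spots of the section with the most UMIs of the 40 genes at that depth.

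At E13.5 the highest classes were blood-forming and branching organs. Erythroid-marker spots held 5631 CPM (95% interval 5516 to 5746), liver-marker spots 5496 CPM and lung-marker spots 5363 CPM, against 2363 CPM in the spots outside the erythroid class. The erythroid and liver classes shared 40 of their 64 spots each, and the fetal liver is the main site of blood formation at this age. In the lung class all 40 members were higher past the fold (10.9% of all genes), and in the liver and erythroid classes 36 each (10.4% and 10.6%). Spots rich in general epithelial markers held 4813 CPM and had all 40 past the fold (15.9%). In lung-marker spots Top2a was at 228 CPM against 89.2 CPM in the other spots and Mcm6 at 191 CPM against 109.6 CPM. Among the 61 spots with the most UMIs of the 40 genes after thinning, 13 were erythroid, 10 liver and 10 lung spots, and 0 were neuron spots.

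Neuron-marker spots had the lowest summed level of the classes in both embryo sections. They held 711 CPM (95% interval 683 to 740.4) at E13.5 and 522 CPM (95% interval 496 to 549) at E16.5, against 2477 and 1648 CPM in the other spots. At E13.5 all 40 members were lower past the fold (29.9% of all genes), and at E16.5 38 were (32.4%). Top2a in these spots was at 20.1 CPM against 93.99 CPM in the rest at E13.5, and Mki67 at 15.01 CPM against 105 CPM. Neurons are cells that no longer divide. Among the 63 spots with the fewest UMIs of the 40 genes at E16.5, 18 were neuron spots and 5 neural progenitor spots. Among the 61 such spots at E13.5, 2 were neuron spots, 0 neural progenitor spots and 4 epidermis spots, so most of the lowest spots there lay outside the neuron class.

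**Figure D3:**
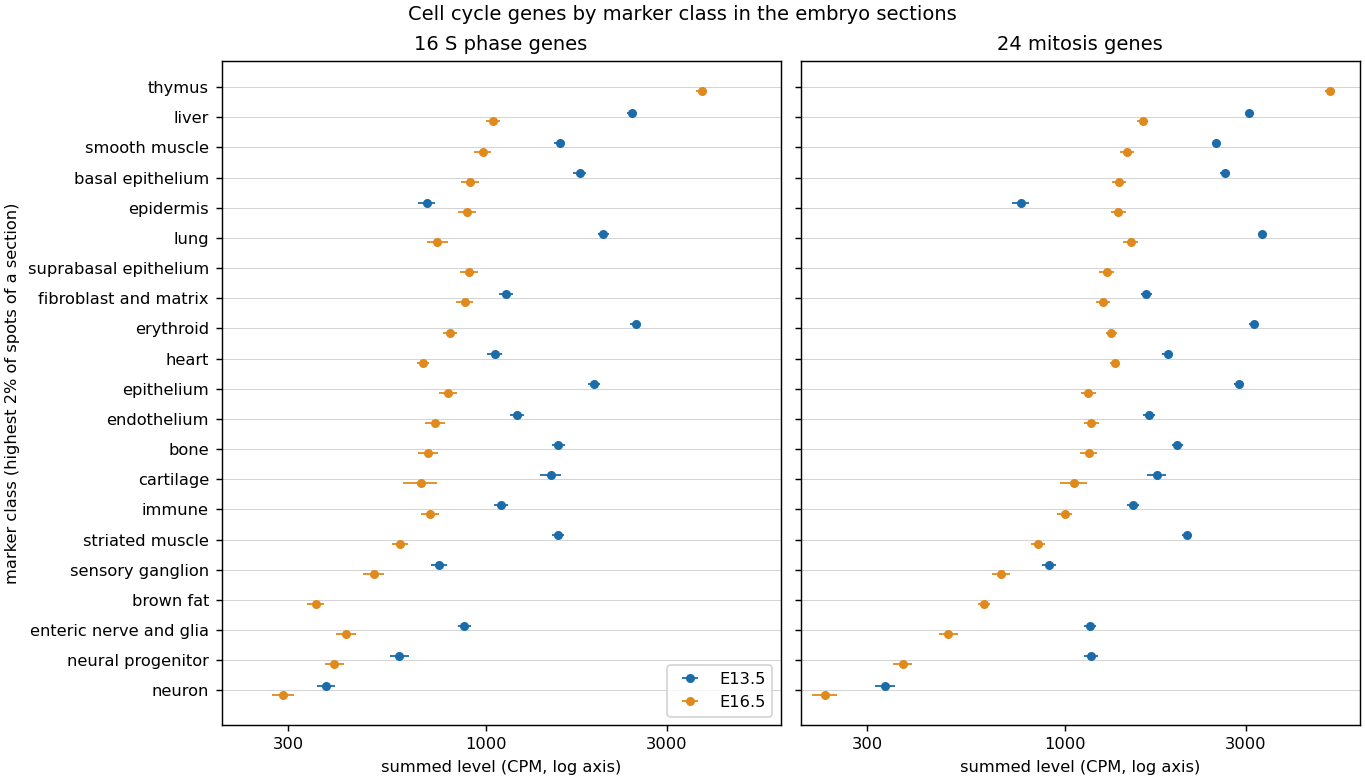
Summed level of the 16 S phase genes and of the 24 mitosis genes (CPM, log axes) in the highest 2% of spots for each marker list, in the E13.5 and E16.5 sections, with exact Poisson 95% intervals. Thymus-marker spots are the highest at E16.5 and neuron-marker spots the lowest in both sections, and the epidermis class is the one with its E16.5 points above its E13.5 points.

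Of the 18 classes described at both stages, 17 had a lower summed level at E16.5. The ratio of E13.5 to E16.5 ran from 0.64 in the epidermis class to 2.64 in the erythroid class. Erythroid-marker spots went from 5631 to 2129 CPM, striated muscle spots from 3647 to 1439.7 CPM, general epithelium spots from 4813 to 1945 CPM and lung spots from 5363 to 2233 CPM. In epithelium and striated muscle spots all 40 members were lower past the fold at E16.5, where 23% and 43.8% of all genes were. Epidermis-marker spots went the other way, from 1459 to 2274 CPM, with 23 members higher past the fold and 0 lower, where 23.7% of all genes were higher and 40.2% lower. At E13.5 4 of the 6 epidermal markers reached 20 CPM in that class and 1 was at 0, while at E16.5 all 6 reached it. Of its 64 spots at E13.5, 5 were also basal epithelium spots and 5 neural progenitor spots. At E16.5 24 of its 72 were also basal epithelium spots. The erythroid class shared 40 of its 64 spots with the liver class at E13.5 and 8 of its 72 at E16.5. At E16.5 26 of the 72 lung spots were also endothelium spots. Whether any class covers the same tissue at both stages was not tested. No section repeats a stage, so these differences carry no test.

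The balance of mitosis to S phase transcripts also differed between classes. Neural progenitor spots had 1.98 (1.85 to 2.13) mitosis UMIs per S phase UMI at E13.5 and 0.938 (0.866 to 1.02) at E16.5, with exact binomial 95% intervals. Their mitosis genes were at 1172 and 373 CPM and their S phase genes at 591 and 398 CPM. The mitosis genes thus differed by a larger ratio between these stages, 3.14 against 1.49. Heart spots were at 1.77 (1.68 to 1.87) and 1.99 (1.90 to 2.09), and lung spots at 1.63 (1.56 to 1.70) and 2.003 (1.85 to 2.17). Neuron spots had the lowest ratio in each section, 0.886 (0.817 to 0.961) and 0.799 (0.721 to 0.885). Thymus spots, which had the highest sum, were at 1.35 (1.29 to 1.42), inside the range of the other classes.

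In the P0 esophagus, dividing-cell transcripts took a larger share of the RNA in the muscle-rich wall than in the epithelium. Epithelium-rich spots (the highest 25% of a section by epithelial markers) held 1282 and 1216 CPM of the 40 genes in the 2 sections, and muscle-rich spots (the highest 25% by smooth and striated muscle markers) 2383 and 2321 CPM, with 1738 and 1769 CPM in the remaining spots. The regions did not overlap. The muscle-rich sums of the 2 sections were unlike mixes, with smooth muscle markers at 17444 and 12133 CPM and striated muscle markers at 4783 and 14181 CPM. In edgeR's quasi-likelihood test with Benjamini-Hochberg adjustment over 12689 genes, 30 of 40 members were lower in epithelium-rich spots, 0 were higher and 10 did not pass, where 29.4% of all genes were lower and 26.6% higher. The median of the members was log2 -0.64, that of all genes -0.04, and the sections taken alone gave -0.59 and -0.69. By phase, 13 of 16 S phase genes and 17 of 24 mitosis genes were lower. These log2 values carry TMM factors, which adjust for RNA taken up by very abundant genes, whereas CPM do not. With library totals alone the median of all genes was -0.29, that of the members -0.89, and 37 members were lower. DESeq2's Wald test, run as an alternative, called 16 members lower.

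The difference is one of share, and transcripts of the members per spot were about level. Epithelium-rich spots had a median of 39325 and 38936 UMIs and muscle-rich spots 20274 and 22536 UMIs, and per spot the 40 genes gave 52.2 and 53.03 UMIs in epithelium-rich and 51.9 and 55.1 UMIs in muscle-rich spots. With sums scaled by the number of spots instead of by UMIs, the median of the members was -0.00259 and that of all genes 0.60. On that scale 3 members were lower (Ccne2, Rrm2 and Cdk1) and 3 higher (Cdt1, Kif23 and Racgap1), where 16% of all genes were lower and 52.9% higher. Other cell types moved with the regions too. The summed fibroblast and matrix markers were at 2947 and 2819 CPM in epithelium-rich and 14193 and 12371 CPM in muscle-rich spots, endothelial markers at 40.99 and 29.2 against 201 and 180.1 CPM, and immune markers at 80.4 and 81.99 against 304 and 277 CPM. Enteric nerve and glia markers were at 10.2 and 4.86 against 115 and 90.7 CPM, with 2 of the 6 at 0 in 1 epithelium-rich sum, while no marker of the other 3 lists was at 0. Their part in the result was not tested.

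The 3 largest differences were those of Ccne2, Rrm2 and Bub1. Ccne2, a cyclin E like Ccne1, was at 7.55 and 3.47 CPM in epithelium-rich sums against 33.3 and 25.5 CPM in muscle-rich sums (log2 -2.12 ± 0.29, adjusted p = 3.55e-06). Rrm2 was at 17.5 and 22.2 CPM in epithelium-rich sums against 85.3 and 86.2 CPM in muscle-rich sums (log2 -1.87 ± 0.16, adjusted p = 6.41e-09). Bub1, a checkpoint kinase at kinetochores, was at 6.47 and 5.56 CPM in epithelium-rich sums against 18.2 and 12.1 CPM in muscle-rich sums (log2 -1.09 ± 0.32, adjusted p = 0.00702). In all 3 the muscle-rich sums of both sections lay above the epithelium-rich sums, and Ccne2 and Rrm2 were also lower per spot (log2 -1.49 and -1.23). Ccne1 was at 11.6 and 14.2 CPM in epithelium-rich sums against 31.8 and 30.02 CPM in muscle-rich sums (log2 -1.02 ± 0.22, adjusted p = 0.000552). Pcna was at 98.98 and 116 CPM in epithelium-rich sums against 215 and 178 CPM in muscle-rich sums (log2 -0.63 ± 0.12, adjusted p = 0.000176). Mcm7 was at 49.4 and 45.2 CPM in epithelium-rich sums against 87.9 and 86.2 CPM in muscle-rich sums (log2 -0.62 ± 0.13, adjusted p = 0.000478). None of these ranges overlapped between the regions. How many of all genes separated in this way was not counted. Uhrf1 was at 26.7 and 30.2 CPM in epithelium-rich sums against 59.6 and 47.3 CPM in muscle-rich sums (log2 -0.67 ± 0.16, adjusted p = 0.00159), and Rrm1 at 69.9 and 67.1 CPM in epithelium-rich sums against 96.5 and 120.1 CPM in muscle-rich sums (log2 -0.39 ± 0.14, adjusted p = 0.0183).

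Among the mitosis genes the differences were more even. Cenpa was at 36.1 and 29.9 CPM in epithelium-rich sums against 70.2 and 83.02 CPM in muscle-rich sums (log2 -0.93 ± 0.15, adjusted p = 3.77e-05). Tpx2 was at 20.8 and 14.6 CPM in epithelium-rich sums against 36.4 and 45.98 CPM in muscle-rich sums (log2 -0.93 ± 0.21, adjusted p = 0.00083). Both were lower in the epithelium of each section, Tpx2 by more in P0 replicate 2. Bub1b was at 12.7 and 14.2 CPM in epithelium-rich sums against 27.3 and 29.4 CPM in muscle-rich sums (log2 -0.82 ± 0.21, adjusted p = 0.00256), and Birc5 at 36.9 and 27.8 CPM in epithelium-rich sums against 63.1 and 62.6 CPM in muscle-rich sums (log2 -0.69 ± 0.15, adjusted p = 0.000698). Mki67 was at 55.02 and 46.2 CPM in epithelium-rich sums against 102 and 87.5 CPM in muscle-rich sums (log2 -0.65 ± 0.12, adjusted p = 0.000196). The spread of Mki67 between sections was smaller than its difference between regions. Ube2c was at 74.7 and 63.2 CPM in epithelium-rich sums against 118 and 132 CPM in muscle-rich sums (log2 -0.59 ± 0.13, adjusted p = 0.00054), and Cks2 at 82.3 and 80.6 CPM in epithelium-rich sums against 132 and 139 CPM in muscle-rich sums (log2 -0.48 ± 0.12, adjusted p = 0.00207).

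Of the 10 members that did not pass, 3 had the smallest differences. Cdt1, the licensing factor that loads MCM, was at 27.2 and 34.7 CPM in epithelium-rich sums against 36.4 and 35.1 CPM in muscle-rich sums (log2 0.03 ± 0.17, adjusted p = 0.905 by edgeR), the single member above 0. Its CPM were lower in epithelium, and with library totals in place of TMM its log2 value was -0.23. Kif23 was at 26.7 and 30.2 CPM in epithelium-rich sums against 33.8 and 37.04 CPM in muscle-rich sums (log2 -0.06 ± 0.17), and Racgap1 at 40.5 and 35.8 CPM in epithelium-rich sums against 44.4 and 64.5 CPM in muscle-rich sums (log2 -0.23 ± 0.17). Kif23 and Racgap1 work together in the centralspindlin complex. With TMM, the sign of the difference was not the same in the 2 sections for Cdt1, Racgap1 and Cenpe, a kinesin of the kinetochore, which was at log2 0.26 in P0 replicate 1 and -1.20 in P0 replicate 2. The other 7 that did not pass were Hells, Mcm4, Kif20a, Cenpe, Cenpf, Cdc20 and Ccnb2, at log2 -0.46 to -0.29 over both sections.

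**Figure D4:**
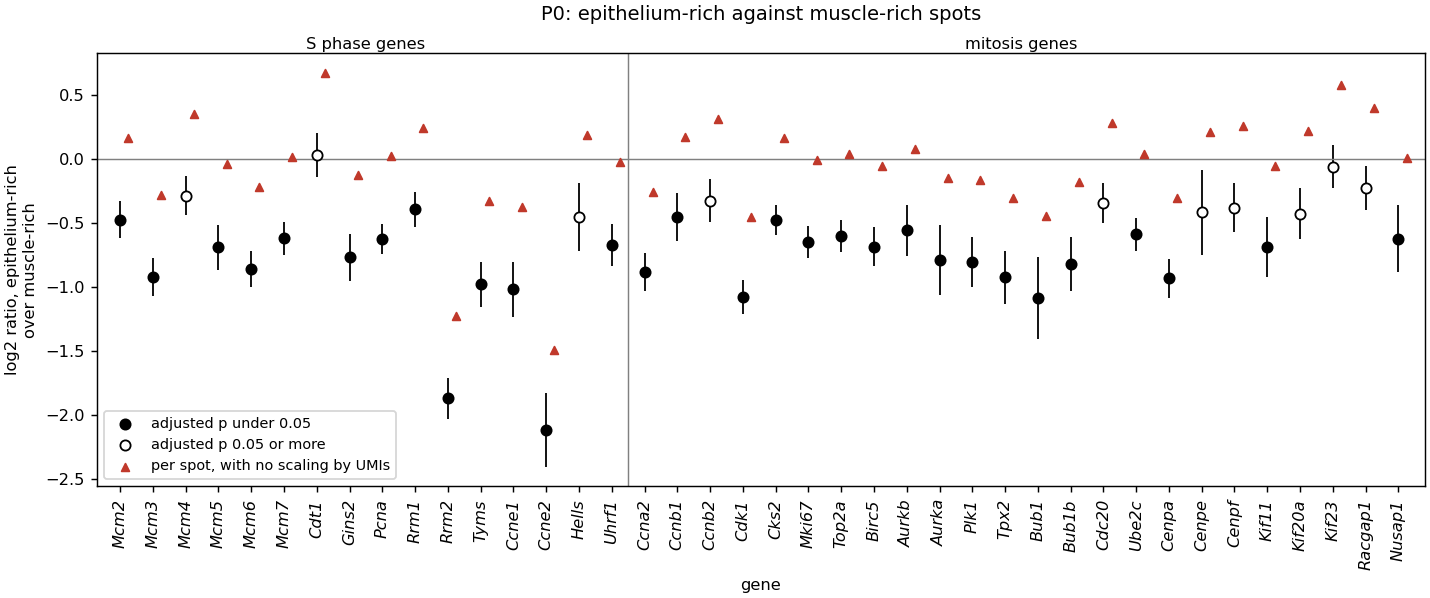
Log2 ratio of epithelium-rich over muscle-rich spots in the P0 sections for each of the 40 genes (circles with standard errors, filled where the edgeR adjusted p was under 0.05) and the same ratio per spot without scaling by UMIs (triangles). The circles lie below 0 for 39 of 40 genes, while the triangles lie below 0 for 20 and above it for 20.

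The wider lists are read beside the 29.4% of all genes that were lower and the 26.6% that were higher. Of 27 tested further S phase genes 20 were lower and 0 higher, Tk1, a thymidine kinase (-1.72 ± 0.16, adjusted p = 2.33e-08), and Gins3 (-1.57 ± 0.46, adjusted p = 0.00738) by most. Of 36 further mitosis genes 26 were lower, Spc25 (-1.62 ± 0.22, adjusted p = 2.94e-06) and Pbk (-1.44 ± 0.17, adjusted p = 6.27e-07) by most, and the 1 higher was the kinase Melk (1.04 ± 0.21, adjusted p = 0.000256). Of 17 G1 cyclins, E2F factors and pocket proteins 8 were lower, led by E2f2 (-2.15 ± 0.42, adjusted p = 0.000213) and E2f1 (-1.68 ± 0.21, adjusted p = 1.2e-06), and 2 were higher, Ccnd2 (0.83 ± 0.11, adjusted p = 3.84e-06) and Cdk6 (0.57 ± 0.17, adjusted p = 0.00948). Of 12 tested inhibitors and exit genes 4 were lower in epithelium (33.3%, near the share of all genes) and 5 higher (41.7%). The lower ones were Gas1, a membrane protein of growth arrest (-4.07 ± 0.15, adjusted p = 6.13e-14), Cdkn1c, Cdkn2c and Cdkn2d, and the higher ones were Cdkn2b (3.44 ± 0.25, adjusted p = 8.83e-10), Cdkn1a, Btg2, Ccng2 and Btg1.

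Within the P0 epithelium, transcripts of mitosis took a larger share where suprabasal markers were lower. The epithelium-rich spots of each section were split at the median of the basal minus the suprabasal marker score, which gave 45 and 46 spots in P0 replicate 1 and 33 and 33 in P0 replicate 2. The summed basal markers were about level between the basal-leaning and suprabasal-leaning spots, at 11609 and 12344 against 11559 and 11818 CPM, while the suprabasal markers were at 36180.0 and 31776 against 52368 and 49771 CPM. The names thus stand for the score, and the basal-leaning spots are low in suprabasal markers rather than rich in basal ones. Basal-leaning spots held 1578 and 1646 CPM of the 40 genes and suprabasal-leaning spots 997 and 906 CPM. The mitosis genes were at 978 and 947 against 542 and 435 CPM, ratios of 1.80 and 2.18, and the S phase genes at 599.5 and 699 against 455 and 471 CPM, ratios of 1.32 and 1.48. By edgeR's quasi-likelihood test over 11546 genes, 14 of 40 members were higher in basal-leaning spots, 0 were lower and 26 did not pass, where 2.03% of all genes were higher and 7.34% lower. Of the 14, 13 were mitosis genes (of 24) and 1 was an S phase gene (Mcm2, of 16). DESeq2's Wald test, run as an alternative, called 5 members. The median was log2 0.81 over the mitosis genes and 0.34 over the S phase genes, beside 0.02 over all genes. The wider lists lay closer together, with medians of log2 0.44 over 36 further mitosis genes and 0.36 over 27 further S phase genes. The difference between the phases was not tested.

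All 5 mitotic cyclin and kinase genes passed. Ccnb1, the cyclin that starts mitosis with Cdk1, was at 41.8 and 37.3 CPM in basal-leaning sums against 17.5 and 16.1 CPM in suprabasal-leaning sums (log2 1.08 ± 0.23, adjusted p = 0.00129). Cdk1 was at 59.9 and 49.8 CPM in basal-leaning sums against 27.5 and 22.1 CPM in suprabasal-leaning sums (log2 0.99 ± 0.20, adjusted p = 0.000652). Cks2 was at 104 and 118 CPM in basal-leaning sums against 61.4 and 53.8 CPM in suprabasal-leaning sums (log2 0.76 ± 0.15, adjusted p = 0.000648). In each the basal-leaning sums of both sections were above both suprabasal-leaning sums, and Ccna2 and Ccnb2 also passed, at log2 0.74 and 0.84. Mki67 was at 71.4 and 72.98 CPM in basal-leaning sums against 39.2 and 26.9 CPM in suprabasal-leaning sums (log2 0.95 ± 0.18, adjusted p = 0.000313). Ube2c was at 94.5 and 101 CPM in basal-leaning sums against 55.6 and 35.9 CPM in suprabasal-leaning sums (log2 0.91 ± 0.17, adjusted p = 0.000246). Cenpa was at 46.2 and 46.4 CPM in basal-leaning sums against 26.5 and 17.9 CPM in suprabasal-leaning sums (log2 0.88 ± 0.22, adjusted p = 0.00625). These 3 did not overlap between the regions either, and Mki67 and Ube2c kept a difference of log2 0.90 and 0.87 per spot. The number of all genes that separated in this way was not counted. Racgap1 was at 50.6 and 55.6 CPM in basal-leaning sums against 30.7 and 21.5 CPM in suprabasal-leaning sums (log2 0.84 ± 0.20, adjusted p = 0.00454), and Birc5 at 49.5 and 37.3 CPM in basal-leaning sums against 24.9 and 20.9 CPM in suprabasal-leaning sums (log2 0.78 ± 0.21, adjusted p = 0.0134). Top2a, Cdc20 and Cenpf passed as well, at log2 0.85, 0.80 and 0.83.

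Among the members that did not pass, Bub1 had the largest estimate with a wide error, at 8.24 and 11.6 CPM in basal-leaning sums against 4.77 and 1.20 CPM in suprabasal-leaning sums (log2 1.47 ± 0.52, adjusted p = 0.0704 by edgeR). Bub1b was at 17.04 and 20.7 CPM in basal-leaning sums against 8.47 and 9.57 CPM in suprabasal-leaning sums (log2 0.88 ± 0.32, adjusted p = 0.0773 by edgeR), Tpx2 at 28.03 and 17.4 CPM in basal-leaning sums against 13.8 and 12.6 CPM in suprabasal-leaning sums and Kif23 at 31.9 and 39.8 CPM in basal-leaning sums against 21.7 and 23.3 CPM in suprabasal-leaning sums. Bub1, Bub1b and Tpx2 are thinly counted genes, while Kif23 had more counts and a smaller estimate (log2 0.49 ± 0.22). Both sections gave a positive difference for each of them. Of the S phase genes, Hells, at log2 0.84, and Cdt1, at 0.65, had estimates as large as those of many mitosis genes and did not pass. Pcna was at 123 and 136 CPM in basal-leaning sums against 75.7 and 102 CPM in suprabasal-leaning sums (log2 0.38 ± 0.15, adjusted p = 0.112 by edgeR), Uhrf1 at 31.3 and 45.6 CPM in basal-leaning sums against 22.2 and 19.1 CPM in suprabasal-leaning sums and Mcm7 at 56.6 and 50.6 CPM in basal-leaning sums against 42.4 and 41.3 CPM in suprabasal-leaning sums. Tyms, which makes thymidylate, was at 23.1 and 28.2 CPM in basal-leaning sums against 20.7 and 22.7 CPM in suprabasal-leaning sums (log2 0.05 ± 0.25). The smallest differences were those of Tyms and Ccne2, and Ccne2 was at 8.24 and 3.32 CPM in basal-leaning sums against 6.89 and 3.59 CPM in suprabasal-leaning sums (log2 0.06 ± 0.49). Rrm1, at 64.8 and 74.6 CPM in basal-leaning sums against 74.7 and 61.6 CPM in suprabasal-leaning sums (log2 -0.15 ± 0.16), and Ccne1, at 10.99 and 14.1 CPM in basal-leaning sums against 12.2 and 14.3 CPM in suprabasal-leaning sums (log2 -0.27 ± 0.33), were the members below 0. For Rrm1, Ccne2 and Mcm3 the sections differed in sign.

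**Figure D5:**
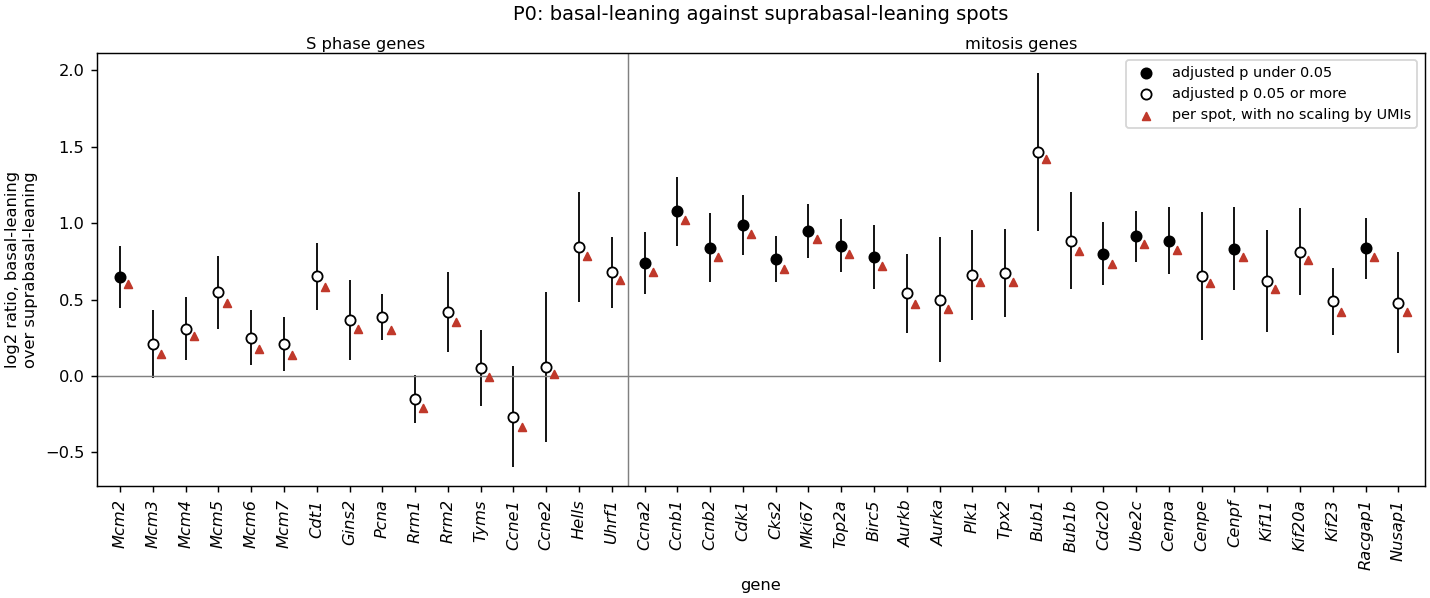
Log2 ratio of basal-leaning over suprabasal-leaning spots of the P0 epithelium for each of the 40 genes (circles with standard errors, filled where the edgeR adjusted p was under 0.05) and the same ratio per spot without scaling by UMIs (triangles). Of the mitosis genes right of the line 13 of 24 are filled, of the S phase genes left of it 1 of 16, and each triangle lies close to its circle.

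Per spot the basal-leaning epithelium also held more, with 63.8 and 60.2 UMIs of the 40 genes against 40.9 and 45.9, and 11 members were higher on that scale, where 0.84% of all genes were. The mitosis genes gave 39.6 and 34.6 UMIs per spot against 22.3 and 22.0. The S phase genes gave 24.2 and 25.5 against 18.7 and 23.9, about level in P0 replicate 2. Median spots held 38562 and 34826 UMIs in basal-leaning and 39750.5 and 48049 UMIs in suprabasal-leaning epithelium. The fibroblast and matrix markers were at 3503 and 3832 CPM in basal-leaning and 2411 and 2088 CPM in suprabasal-leaning spots, and the immune markers at 95.6 and 116 against 65.7 and 57.4 CPM, each of the 7 and 6 genes being above 0 except 1 immune gene in 1 sum. Their part in the difference was not tested. On the scale of the main test, 2.03% of all genes were higher and 7.34% lower. From the wider lists, 4 of 36 further mitosis genes were higher (Cdca3, Cks1b, Cdca8 and Ckap2l), Cdca3 (1.01 ± 0.22, adjusted p = 0.00172) and Cks1b (0.78 ± 0.18, adjusted p = 0.00262) by most. Of 27 further S phase genes 1, Dut, a dUTPase, was higher (0.54 ± 0.17, adjusted p = 0.0344), and of 17 G1 genes 1, Ccnd1, cyclin D1 (0.61 ± 0.17, adjusted p = 0.0142). Of 12 inhibitors and exit genes 4 were lower in basal-leaning spots, Cdkn2b (-1.09 ± 0.19, adjusted p = 0.000109), Ccng2 (-0.95 ± 0.17, adjusted p = 0.000141), Cdkn1c and Cdkn1a, and 0 were higher. Of these, Cdkn2b, Ccng2 and Cdkn1a were also among the 5 higher when epithelium was set against muscle.

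Across whole P0 sections, cut into 4 equal groups of spots by each marker score, the summed CPM of the 40 genes went down steadily with the suprabasal score. From the lowest to the highest group it was 2423, 2087, 1609.9 and 1145 CPM in P0 replicate 1 and 2272, 2127, 1698 and 1107 CPM in P0 replicate 2. With the smooth muscle score it went up, from 1246 to 2338 CPM and from 1281 to 2518 CPM. Between the lowest and highest striated muscle groups the rise was smaller, from 1390 to 2007 CPM and from 1602 to 1894 CPM. With the fibroblast and matrix score the summed CPM was also higher in the highest group than in the lowest, at 2006 against 1298.5 CPM and 2209 against 1193 CPM. With the basal score it was high at both ends, at 2394, 1301, 1405 and 1850.2 CPM in P0 replicate 1 and 2215, 1328, 1450.4 and 1776 CPM in P0 replicate 2. The groups differ in depth, with median spots of 19689, 21904, 30472 and 31310.5 UMIs from the lowest to the highest basal group in P0 replicate 1. The median spot went from 20105 to 37560.5 and 22535.5 to 37514 UMIs along the suprabasal score. Along smooth muscle it went from 38746 to 20037 and 40026.5 to 19084.5 UMIs. UMIs of the 40 genes per spot had no steady direction by the suprabasal or the smooth muscle score. They were 53.5, 42.0, 52.4 and 44.0 and 54.8, 40.8, 43.4 and 47.2 over the suprabasal groups. In the lowest and highest smooth muscle groups they were 50.4 and 51.2, and 52.5 and 51.2. In the lowest and highest fibroblast and matrix groups they were 54.7 and 36.1, and 47.3 and 40.3, the reverse of the CPM. For the striated muscle score they were 44.6 and 53.5, and 45.1 and 45.8. For the basal score they were 51.4 and 61.2, and 50.3 and 56.9.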

How the data were processed

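UMI counts per gene and spot were deposited by the authors for 4 Visium sections, 1 at E13.5, 1 at E16.5 and 2 at P0, as raw counts from Space Ranger 2.0.0 per the file headers, on mm10 per the submitters' processing notes. The deposited matrices hold spots over tissue, and section images were not used here. No value column was left unassigned to a sample. Doublets were not called, since a spot is a mixture of cells.

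Spots with at least 500 UMIs were kept. Total depth was 98643829 UMIs at E13.5, 105834164 at E16.5, and 10260709 and 7356008 at P0, so sums are precise in the embryo sections and single members thin in P0 regions. Marker scores were the mean over markers of log(1 + UMIs per 10000). Classes were the highest 2% of spots in embryo sections and regions the highest 25% in P0 sections. Embryo comparisons hold 1 section a group and carry no test. Genes with at least 20 UMIs in an embryo comparison entered its background.

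For P0, UMIs were summed per region and section, and tested with edgeR 4.0.16 (R 4.3.3) by the quasi-likelihood test with TMM factors. Each fit held 6 sums, since the remaining spots of each section were also summed and shared the estimate of the spread. It left 2 residual degrees of freedom. A further 16.5 (epithelium-rich against muscle-rich) and 31.6 (basal-leaning against suprabasal-leaning) were borrowed across genes, so small p-values do not stand for many sections. The fit blocked on section, and p-values were adjusted by Benjamini-Hochberg over all genes that passed filterByExpr. Every adjusted p in the text comes from this test across all genes. Regions of 1 section are paired by construction, since they come from the same tissue. DESeq2 1.42.0, other scalings, depth limits, region sizes and each section left out were tried as alternatives. Scripts were tested on simulated data. Python 3.11.15 was used for sums and figures.

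The members and gene lists were chosen with earlier results of these data known. Members named with all values are those with the highest P0 level in each role, and those with the 3 largest and 3 smallest differences in each P0 test. For the other lists, the 2 genes with the largest called change in each direction were named, and further called genes are named where a count is 5 or fewer, chosen after their values were seen.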

Additional observations from a re-analysis of the deposited data

Results flagged for a closer look

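In 2 marker classes the summed level of the 40 genes lay on opposite sides of the other spots at the 2 embryonic stages. Striated muscle spots were at log2 0.61 against the other spots at E13.5 and at -0.17 at E16.5. Epidermis spots were at -0.74 at E13.5 and at 0.50 at E16.5. Each stage is 1 section, and the difference between stages was not tested. In the epidermis class 4 of 6 markers reached 20 CPM at E13.5 and 6 of 6 at E16.5, and the summed epidermal markers were at 274 and 16610 CPM.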

How the results depend on the processing

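Scaling per spot left no direction for epithelium-rich against muscle-rich spots, with 20 members below 0 and 20 above. The other alternatives kept the sign of that median, and those run for the other P0 median and the stage median kept theirs. For epithelium-rich against muscle-rich spots (30 members lower, median -0.64), the DESeq2 Wald test called 16 lower. Library totals gave a median of -0.89, the highest 15% of spots -0.73, the highest 35% -0.51, striated muscle markers alone -0.55, and all spots that were not epithelium-rich -0.41. Scaling per spot gave 3 lower, 3 higher and a median of -0.0026. Leaving out 1 section, which leaves no test, gave -0.69 to -0.59. With no replicate block 28 were lower, at a median of -0.64. Signs turned for Cdt1 with totals (-0.23), 15% of spots (-0.13), striated markers (-0.0911) and without P0 replicate 2 (-0.14, against 0.21 without P0 replicate 1). They turned for Kif23 at 2000 UMIs per spot (0.0234), 15% (0.0313), 35% (0.0877) and smooth muscle markers alone (0.0225). Racgap1 was at 0.14 without P0 replicate 2 and -0.61 without P0 replicate 1. Per spot, 7 of the 18 members followed through the alternatives turned. They were Mcm7 (0.0135), Pcna (0.0206), Rrm1 (0.24), Cks2 (0.16), Ube2c (0.0370), Kif23 (0.57) and Racgap1 (0.40). The other turned signs named above also cover those 18 alone.

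For basal-leaning against suprabasal-leaning spots (14 higher, median 0.66), the Wald test called 5, with an adjusted p not given for 13 members. Totals gave a median of 0.82, scaling per spot 0.61, and the epithelial spots in the outer parts of the score, with the middle part left out, 0.90 with 22 members higher. Leaving out 1 section gave 0.63 to 0.69, and no replicate block 12 higher at 0.66. Signs turned for Ccne2 under the Wald test (-0.0113), Rrm1 with totals (0.0140) and outer parts (0.10), and Tyms per spot (-0.00812). Without P0 replicate 1, Rrm1 was at 0.0280 (-0.29 without P0 replicate 2) and Ccne2 at -0.32. These signs cover the 19 members followed through the alternatives.

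Between stages (19 lower, median -0.58), TMM gave 9 and -0.46, a pseudocount of 5 CPM 10 and -0.52, and totals without mitochondrial and haemoglobin genes -0.52. Those totals put the sums at 2560 CPM (E13.5), 1785 CPM (E16.5) and 1785 CPM (P0 mean), so E16.5 and P0 were then level, and thinning put them at 2672, 1692 and 1807 CPM. Against the other spots, enteric nerve and glia at E13.5 turned to 0.26 and epithelium at E16.5 to -0.42 with spots of 1 class only, and immune at E13.5 to -0.0681 with thinning. The cause of these moves was not tested. P0 regions hold 33 to 91 spots, so members with few UMIs, such as Bub1 and Ccne2, carry wide errors, and no embryonic stage has a repeat.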

Other observations

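Across 39 marker classes of the embryo sections, each member's level was set beside the mean level of the other members. Pearson's r ran from 0.62 to 0.98 with a median of 0.95, and it was above 0.9 for 34 of 40 genes. The lowest were Ccne1, at 0.62, and Racgap1, at 0.77, and the highest was Top2a. The classes share spots, libraries and depth, so these values describe the likeness of the profiles and carry no test.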
